A study of Homo sapiens with 2 samples.

Results

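Solute carriers are membrane proteins that move small molecules and ions across the plasma membrane and the membranes of organelles, and each family of the SLC nomenclature is grouped by sequence and not by substrate. The SLC25 family sits almost wholly in the inner mitochondrial membrane, where it exchanges ADP for ATP and carries phosphate, metabolites and cofactors between matrix and cytosol. Other families supply nucleotide sugars to the Golgi apparatus for glycosylation, keep zinc and iron in balance, or set pH and cell volume.

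Described here are the solute carrier genes other than those of the families SLC1A, SLC2A, SLC3A, SLC7A, SLC16A and SLC38A, which hold the main amino acid, glucose and monocarboxylate carriers. Members were the genes with a probe set of 1 platform gene symbol that starts with SLC and a digit, without those 6 families. This gave 195 genes among 11963 genes with such a probe set, 28 of them SLC25 genes and 167 of other families. The rule goes by name, so that it keeps some amino acid carriers (in SLC6, SLC36, SLC43 and SLC25) and also takes in genes that are no carriers, such as SLC4A1AP, an adaptor protein, and 3 pseudogenes or antisense genes. Signals were measured in L-428, an HL cell line kept in culture, with 2 microarrays of the type HG_133A from Affymetrix. Cells of the knock-down carried pcDNA6.2-GW/EmGFP-miR-DUSP5, which encodes an artificial microRNA directed at DUSP5, and cells of the vector control carried pcDNA6.2-GW/EmGFP-miR-neg. Both vectors carry a green fluorescent protein, and each condition is 1 transfection on 1 array, so that there is no spread between cultures, no p-value was computed, and an effect of the knock-down and a difference between the cultures cannot be told apart.

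The signal intensity of DUSP5 was 628 in control cells and 368 after knock-down, 58.6% of control. All 7 listed HL markers reached a mean signal of 200, among them TNFRSF8 (CD30), IRF4 and CCL17, and none of the 11 listed B cell, T cell and myeloid markers with a probe set did. TNFRSF8 (log2 ratio 1.07) and CCL17 (0.99) were themselves higher after knock-down, and the part of this in the values below was not tested. Summed over the listed genes, the signals were 218 in control cells and 401 after knock-down for B cell markers, 224 and 390 for T cell markers and 96.9 and 94.3 for myeloid markers. The widest rises among B and T cell markers were those of POU2AF1 (9.93 and 116) and CD3D (27.3 and 189). CD79A (82.3 and 42.3) and CD247 (54.7 and 29.6) went down, 1 marker of each type. The median signal over all 22283 probe sets was 161 in control cells and 164 after knock-down. For each gene the probe set with the highest mean of both signals was used, the log2 ratio is always knock-down over vector control, and a gene is called higher or lower where it differed at least 1.5-fold. The error given with a ratio is the standard deviation (SD) that probe sets for 1 gene showed in that band of mean signal, namely 0.41 for 200 to 500, 0.36 for 500 to 1000, 0.30 for 1000 to 3000 and 0.26 beyond. Error between cultures or arrays is not part of it.

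A mean signal of 200 was reached by 80 of the 195 genes (41.0%), against 6301 of all 11963 genes (52.7%). Among SLC25 genes it was 22 of 28 (78.6%), and among the other families 58 of 167 (34.7%). The nucleotide sugar carriers and their neighbours in the Golgi apparatus and endoplasmic reticulum (ER) reached it in 14 of 18 cases and the zinc carriers in 9 of 15. At the other end, 3 of 26 carriers of organic ions and vesicular transmitters, 3 of 21 of amino acids, peptides and amines, and 0 of 6 sodium-calcium exchangers did so. Of SLC6, the family of the neurotransmitter carriers, 1 of 15 genes reached 200, and of SLC22, the organic ion carriers known from kidney and liver, 1 of 10. Just above the threshold lay SLC4A4 (mean signal 208), SLC43A1 (216) and SLC35F6 (221), and just below it SLC28A3 (197.3), SLC27A3 (197.1) and SLC22A14 (193). Genes under 200 are treated as not measured, which at these arrays' precision is not the same as not expressed.

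**Figure D1:**
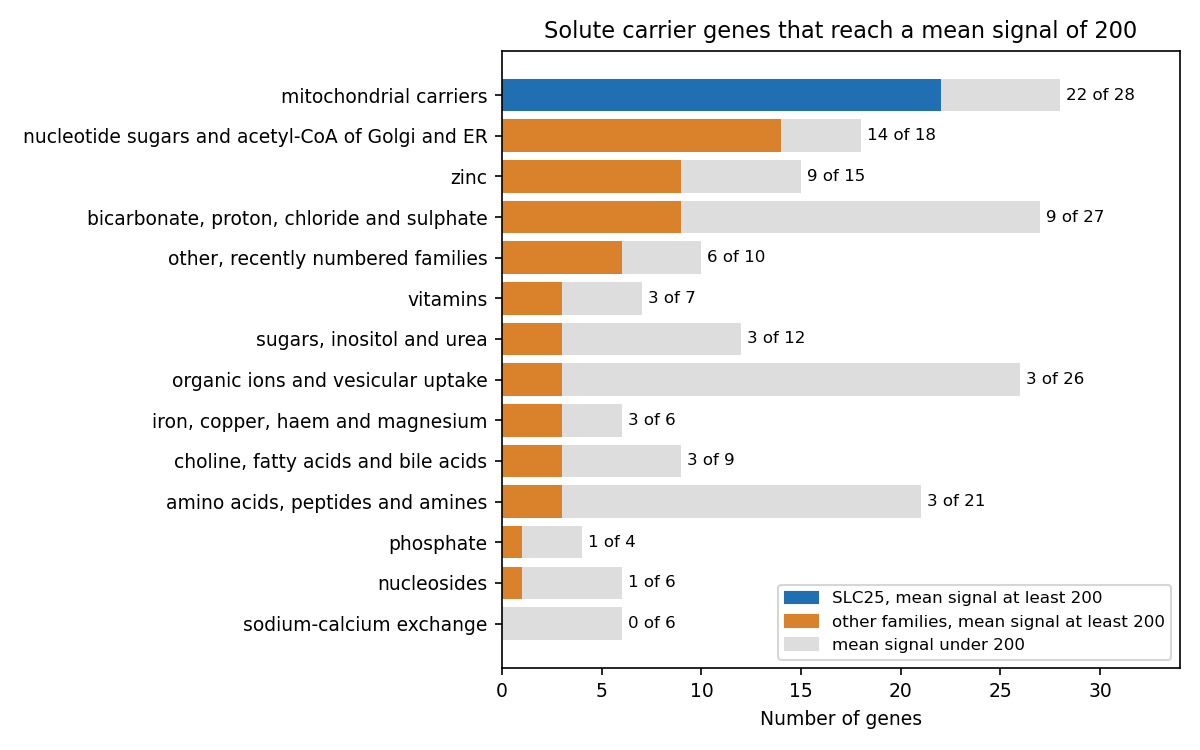
Number of solute carrier genes (horizontal axis) in each substrate group, with those at a mean signal of at least 200 in colour (SLC25 blue, other families orange) and those under 200 in grey. The mitochondrial carriers (22 of 28) and the nucleotide sugar group (14 of 18) are the best filled, and the organic ion group (3 of 26) is among the least.

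The 22 measured SLC25 genes stayed close to their control signals. Of these genes 1 was higher, 2 were lower and 19 (86.4%) lay between, with a median log2 ratio of 0.11. Among all 6301 measured genes 15.6% were higher, 19.0% were lower and 65.4% lay between, with a median of 0.01. The middle of the SLC25 genes was also narrow, with a range between quartiles of 0.55 against 0.83 for all genes. The SD between probe sets is smaller at high signals, and the median mean signal was 826 for SLC25 and 708 for all measured genes. At a mean signal of at least 500 the share between was still 14 of 17 SLC25 genes (82.4%), against 65.4% of all 4037 genes.

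Among carriers that serve ATP synthesis, 1 was called higher. SLC25A5, an ADP/ATP carrier of the inner membrane, had a signal of 8991 in control cells and 16002 after knock-down, with a ratio on the log2 scale of 0.83 (SD 0.26), and had the highest ratio of the SLC25 genes. SLC25A3, which brings in the phosphate that is joined to ADP, had 9763 and 13834, a ratio of 0.50 (SD 0.26). Both values depended on how bright signals are scaled: after quantile normalization of the arrays SLC25A5 was at 0.45 and SLC25A3 at 0.13, and neither was then at least 1.5-fold higher, while the citrate carrier SLC25A1 just was (0.59). SLC25A4, a second ADP/ATP carrier known from heart and muscle, had 578 and 637 (0.14), and its other, dim probe set gave -1.09 (-0.48 for the mean of both). The ADP/ATP carriers are close in sequence and have processed pseudogenes, so that a probe set may catch more than its own transcript.

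To show the regulatory DNA of SLC25A5 and SLC25A3 and of a zinc exporter described further on, the 250 bases before the annotated start are given from RefSeq (GRCh38.p14), in lower case and 5′ to 3′ on the strand of the gene. Capitals mark matches, on either strand, to GCGCANGCG (a core of the site of NRF1, a factor known from genes of respiration) in SLC25A5 and SLC25A3 and to TGCACNC or TGCGCNC (the core of the metal response element) in SLC30A1.
SLC25A5, chrX:119468194-119468443, plus strand: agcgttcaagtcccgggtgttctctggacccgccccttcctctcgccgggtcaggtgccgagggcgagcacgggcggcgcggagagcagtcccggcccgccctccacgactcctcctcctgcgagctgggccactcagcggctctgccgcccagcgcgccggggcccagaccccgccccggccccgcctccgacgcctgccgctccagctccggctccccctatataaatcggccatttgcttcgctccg
SLC25A3, chr12:98593436-98593685, plus strand: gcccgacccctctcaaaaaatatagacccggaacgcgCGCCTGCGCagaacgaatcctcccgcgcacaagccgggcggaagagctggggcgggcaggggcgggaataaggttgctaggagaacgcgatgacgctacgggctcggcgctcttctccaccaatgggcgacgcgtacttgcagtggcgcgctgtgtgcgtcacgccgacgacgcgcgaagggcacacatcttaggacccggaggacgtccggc
SLC30A1, chr1:211579162-211579411, minus strand: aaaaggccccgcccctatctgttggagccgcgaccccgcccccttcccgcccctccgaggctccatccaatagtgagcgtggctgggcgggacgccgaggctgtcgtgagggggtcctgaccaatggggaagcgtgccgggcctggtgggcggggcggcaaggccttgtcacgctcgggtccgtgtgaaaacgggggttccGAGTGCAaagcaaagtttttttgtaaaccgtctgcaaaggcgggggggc
SLC25A3 had 1 match, SLC25A5 none and SLC30A1 1 in these windows. Over windows from 250 bases before to 50 bases after the start, GCGCANGCG was in 7.52% of 35116 promoters. It was there for 2 of 19 measured SLC25 genes with a window (SLC25A3 and SLC25A11), 5 of 51 genes of the other families and 19.0% of 5334 measured genes. The metal response core was in 29.6% of all promoters and belonged to 7 of 19 SLC25 genes, 24 of 51 of the other families and 47.0% of the measured genes. Of the zinc carriers 4 of 7 had it. A match to so few letters describes the sequence and is not evidence of binding.

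The carriers of organic acids went different ways. SLC25A1, the citrate carrier that exports acetyl units for lipid synthesis, had a signal of 931 in control cells and 1324 after knock-down (log2 ratio 0.51, SD 0.30). SLC25A11, the oxoglutarate-malate carrier, hardly differed, with 1781 and 1861 (0.06). SLC25A21, the oxodicarboxylate carrier of lysine and tryptophan breakdown, had 1061 and 371, a ratio of -1.52 (SD 0.36), or 35.0% of control. This was the lowest SLC25 gene and the only one past 2-fold. SLC25A24, a calcium-regulated carrier of ATP-Mg and phosphate, was the other gene called lower, with 1206 and 721 (-0.74, SD 0.36). Each of these 4 genes but SLC25A11 had 1 probe set, so that no second probe set bears on them.

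Of the amino acid carriers of the mitochondrion, 5 of 6 were measured and none was called. SLC25A13 and SLC25A12, the aspartate-glutamate carriers of the malate-aspartate shuttle, had log2 ratios of 0.47 (signals 291 and 403) and -0.14 (924 and 836). SLC25A44, a carrier of branched-chain amino acids, was at 0.43 (658 and 884), SLC25A38, a glycine carrier needed for haem, at -0.06 (609 and 583), and SLC25A22, a glutamate carrier, at -0.28 (509 and 419). The shuttle carriers thus lay on either side of 0, by more than 1 SD (0.41) only for SLC25A13.

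The carriers of iron, glutathione and folate were all 4 measured, and none was called. The mitoferrins, which import iron, were at 0.33 for SLC25A28 (signals 461 and 580) and -0.21 for SLC25A37 (323 and 279), each within the SD of its band. SLC25A32, the folate carrier, was at 0.23 (977 and 1143), and SLC25A40, linked to glutathione import, at 0.09 (1114 and 1184). SLC25A20, which passes acylcarnitines inward for fatty acid oxidation, was at 0.36 (511 and 656).

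The remaining SLC25 genes also lay between. SLC25A17, a carrier of the peroxisome, was at 0.33 (426 and 535) and at 0.90 in its dimmer probe set. SLC25A14, also known as an uncoupling protein, was at 0.15 (465 and 518). SLC25A36, a pyrimidine nucleotide carrier, was at -0.09 (2640 and 2489), but its 2 other probe sets, both above 500, gave 0.04 and -0.70. SLC25A46, which takes part in the shaping of mitochondria, was at -0.23 (2638 and 2246), and SLC25A16, a carrier linked to coenzyme A, at -0.27 (1824 and 1517).

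**Figure D2:**
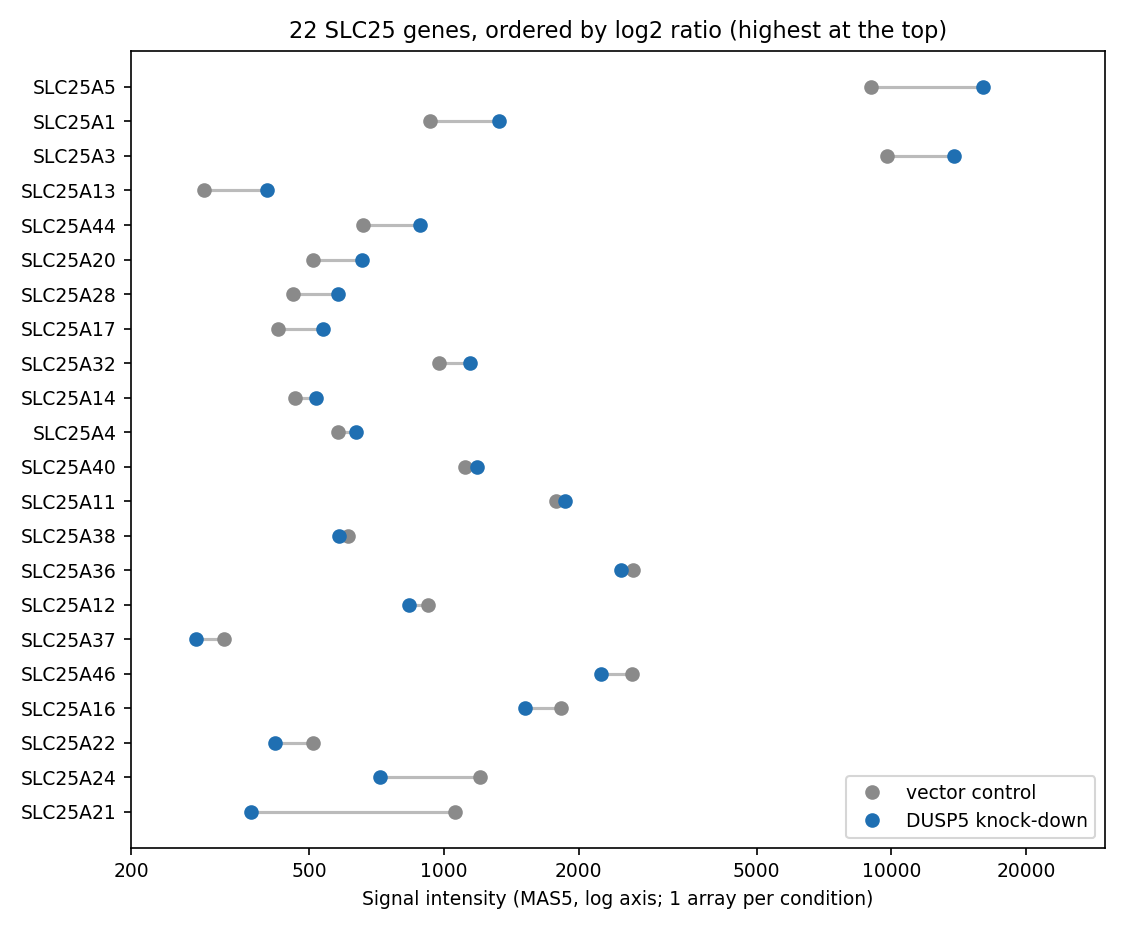
Signal intensity (horizontal log axis) of the 22 measured SLC25 genes in vector control cells (grey) and after DUSP5 knock-down (blue), 1 array each, ordered by log2 ratio. Most pairs lie close together, and SLC25A21 (1061 and 371) has the widest gap.

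The other families had a median log2 ratio of -0.05 over 58 measured genes, 0.17 below that of SLC25. Of these genes 6 (10.3%) were higher, 15 (25.9%) were lower and 37 (63.8%) lay between, against 15.6%, 19.0% and 65.4% of all measured genes. The range between quartiles was 0.85, against 0.83 for all measured genes and 0.55 for SLC25. For the other families without the zinc and nucleotide sugar groups described below it was 0.60, near that of SLC25. The difference between the medians of SLC25 and the other families could not be tested. It kept its direction under all 9 settings of scaling, filter, probe set and member list tried, at 0.04 to 0.21. The families left out by name, for amino acids, glucose and monocarboxylates, had a median of -0.43 over 20 measured genes, with 2 higher (10.0%) and 8 lower (40.0%).

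**Figure D3:**
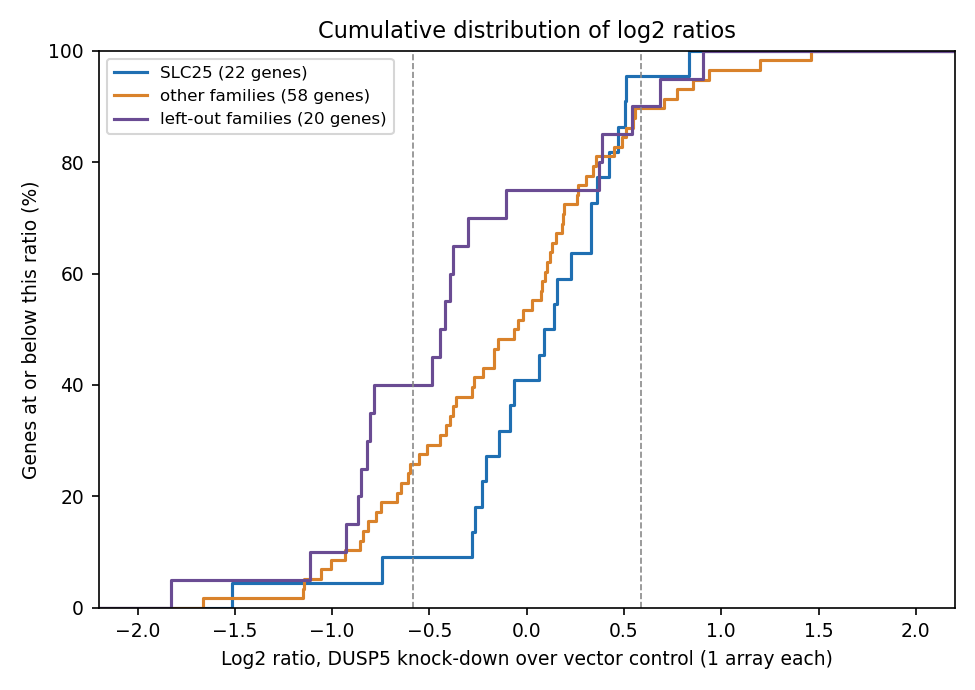
Share of genes (vertical axis, %) at or below a given log2 ratio of DUSP5 knock-down over vector control (horizontal axis), for 22 SLC25 genes, 58 genes of other families and 20 genes of the left-out families. Dashed lines mark a 1.5-fold difference. Below the left line lie 2 of 22 SLC25 genes, 15 of 58 of the other families and 8 of 20 of the left-out families.

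Zinc carriers and nucleotide sugar carriers, 9 and 14 of the 58 measured genes, held 9 of the 15 lower genes. These groups had been written down by substrate, but they are singled out here because of their values. Outside both groups 4 of 35 genes of the other families were higher (11.4%, against 15.6% of all measured genes). Lower were 6 (17.1%, against 19.0%), and the median was 0.07.

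Most SLC30 proteins move zinc out of the cytosol, and SLC39 proteins move it in. Of 9 measured genes 1 was higher (11.1%, against 15.6% of all measured genes) and 5 were lower (55.6%, against 19.0%), with a median log2 ratio of -0.75, which was -0.13 with the mean of all probe sets of each gene. All 3 measured SLC30 genes were lower. SLC30A1, the zinc exporter of the plasma membrane, had a signal of 993 in control cells and 581 after knock-down (-0.77, SD 0.36). SLC30A9 had 1112 and 535 (-1.06, SD 0.36). SLC30A5, which loads zinc into the secretory pathway, had 1790 and 811 (-1.14, SD 0.30), but its other probe set, at a mean signal of 194, went the other way (0.88), and both probe sets are of a type that can match several transcripts.

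The importers were split. SLC39A14, an importer of zinc, manganese and iron, had 4928 and 2935 (-0.75, SD 0.26), and SLC39A9 of the Golgi apparatus had 588 and 307 (-0.93, SD 0.41), with -0.36 and -1.91 at 2 dim probe sets. SLC39A4, the zinc importer of the intestine, had 346 and 625 (0.86, SD 0.41) and was the only zinc carrier called higher. SLC39A8, an importer of zinc and manganese, was above 0 at all 4 probe sets, with 784 and 1103 (0.49) at the brightest. SLC39A1 was at 0.19 and SLC39A6 at 0.03, the latter with 0.64 at its other probe set of like signal. Metallothioneins, which bind zinc and follow its level in the cytosol, were listed for comparison with their regulator MTF1. Higher were 2 of 7 measured genes (28.6%, against 15.6% of all measured genes) and lower 0 (against 19.0%). Their ratios had a median of -0.21, from MT1F (-0.38) to MT1E (1.15). The metallothionein probe sets are nearly all of types shared within the family. They disagreed in sign within each metallothionein that had more than 1. These were MT1E (1.15 and -0.58), MT1F (-0.38 and 0.97), MT1G (-0.21 and 0.68) and MT1X (-0.28 and 0.19).

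Nucleotide sugar carriers bring activated sugars into the Golgi apparatus and the ER, where glycans are built. Of 14 measured genes of this group 1 was higher (7.14%, against 15.6% of all measured genes) and 4 were lower (28.6%, against 19.0%), with a median log2 ratio of -0.38. The 4 lower genes were all SLC35 genes. SLC35A1, which carries CMP-sialic acid, had a signal of 1030 in control cells and 465 after knock-down, a ratio of -1.15 (SD 0.36). SLC35A3, which carries UDP-N-acetylglucosamine, had 1058 and 585 (-0.85, SD 0.36), and its other probe set gave -1.47. SLC35A2, the UDP-galactose carrier, had 370 and 233 (-0.67, SD 0.41), with -2.06 and -0.40 at 2 dim probe sets. SLC35A5 of the same subfamily lay at -0.36 (1155 and 899). The 4 measured SLC35A genes were therefore below 0 at each of their probe sets.

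The lowest of all measured members was SLC35E3, whose substrate is not settled, with 736 and 232 (-1.66, SD 0.41), or 31.6% of control. Its other probe set, at a mean signal of 22.9, gave 0.29, and the mean of both was -0.69. SLC35D1, an ER carrier of UDP-glucuronic acid, was at -0.55, with -0.80 and 0.42 at its other probe sets. Other members did not follow. SLC35B1, of the ER, was at 0.09 (1908 and 2037), SLC35F2 at 0.10, SLC35E1 at 0.12 and SLC35C1, the GDP-fucose carrier, at 0.51 (257 and 365). SLC33A1, which brings acetyl-CoA into the ER, was at -0.39, SLC35F6 at -0.38 and SLC35H1 at -0.42. SLC35F6 and SLC35H1 reached a mean signal of 200 only through the control array. SLC37A4, the glucose-6-phosphate carrier of the ER, was the gene called higher, with 166 and 318 (0.94, SD 0.41), but its dimmer probe set gave -0.01. It reached a mean signal of 200 only through the knock-down array.

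**Figure D4:**
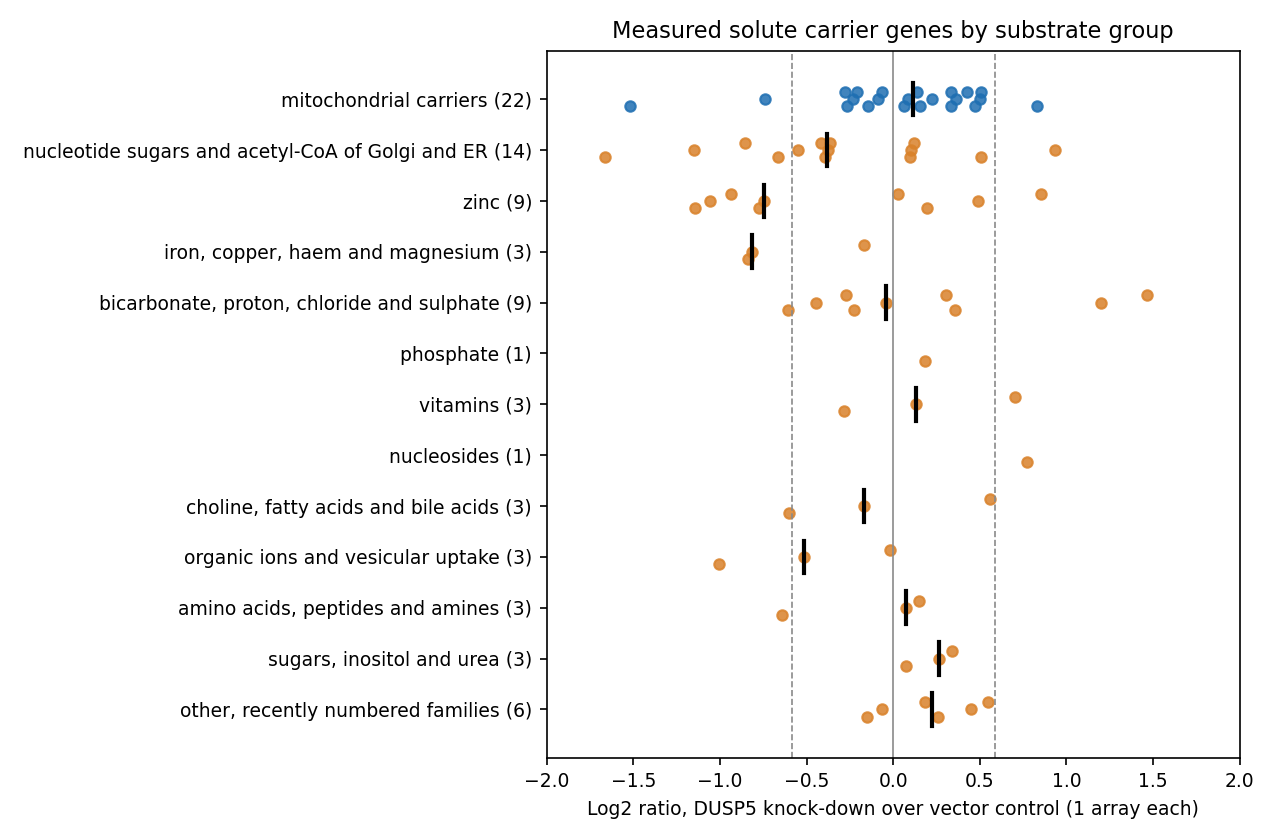
Log2 ratio (horizontal axis, DUSP5 knock-down over vector control, 1 array each) of the 80 measured genes by substrate group, with the number measured in brackets. Points are genes, black bars are medians of groups with at least 3 genes, dashed lines are at 1.5-fold, and the vertical offset has no meaning. The SLC25 points gather around 0.11, and the zinc (-0.75) and nucleotide sugar (-0.38) medians lie left of 0.

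Among carriers of other metals, 2 of 3 measured genes were lower, against 19.0% of all measured genes. SLC11A2, which carries iron across plasma and endosomal membranes, had 813 and 454 (-0.84, SD 0.36). Its other probe sets were nearer to 0 (-0.26 and -0.04 at like signals, 0.20 at a dim one), so that the size rests on 1 probe set. SLC48A1, a haem carrier of endosomes, had 350 and 199 (-0.82, SD 0.41) and was lower still at both dim probe sets (-1.70 at the brighter of them). SLC41A3, of a magnesium carrier family, was at -0.17.

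The group for chloride, bicarbonate and protons, which includes SLC4A1AP, had a median near 0 (-0.04 over 9 genes). Without SLC4A1AP, which is no carrier, the median was 0.13. Of the 9 genes 2 were higher (22.2%, against 15.6% of all measured genes) and 1 was lower (11.1%, against 19.0%). The 2 higher genes had the highest ratios of all measured members. Both were under 200 in control cells, so that they reached a mean signal of 200 only through the knock-down array. SLC12A9, a relative of the cation-chloride cotransporters, had 156 in control cells and 429 after knock-down, a ratio of 1.46 (SD 0.41). SLC12A4, the potassium-chloride cotransporter KCC1, which lets cells lose volume, had 162 and 372 (1.20, SD 0.41), and its 3 dimmer probe sets gave 0.76 to 1.23. SLC12A2, the sodium-potassium-chloride cotransporter NKCC1, which lets cells gain volume, had 1053 and 690 (-0.61, SD 0.36). SLC12A7, another potassium-chloride cotransporter, was at -0.23. The bicarbonate carriers SLC4A7 (0.36) and SLC4A2 (0.30) and the proton exchanger SLC9A8 (-0.45) lay between, as did SLC4A1AP (-0.27).

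Of the nucleoside carriers 1 of 6 was measured and of the vitamin carriers 3 of 7, and these lay above 0 with 1 exception. Those under a mean signal of 200 had both signs, from SLC29A3 (-2.77, signals 311 and 45.8) to SLC19A3 (1.03, signals 41.9 and 85.6). SLC29A1, the nucleoside carrier that also admits nucleoside drugs, had 850 and 1450 (0.77, SD 0.30), and its other probe set gave 1.10. SLC19A1, the reduced folate carrier, had 356 and 580 (0.70, SD 0.41), with 0.82 and 0.56 at its next probe sets and -1.65 at 1 with a mean signal of 20.0. SLC52A2, a riboflavin carrier, was at 0.13, SLC23A2, an ascorbate carrier, at -0.28. SLC20A1, a phosphate carrier of the plasma membrane, was at 0.18 (2567 and 2915). SLC5A3, the myo-inositol carrier, was at 0.26, but its other probe sets gave -0.64 at a like signal and -0.29 at a dim one. SLC5A6, a carrier of biotin and pantothenate, was at 0.34, and SLC50A1, a sugar carrier, at 0.07.

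The groups for lipids, for organic ions and for amino compounds had 3 measured genes each. In each group 1 of 3 was lower and 0 were higher, against 19.0% and 15.6% of all measured genes. SLC22A5, the plasma membrane carnitine carrier, had 456 and 227 (-1.01, SD 0.41). The mitochondrial carnitine carrier SLC25A20, at 0.36 (SD 0.36), was not called. SLC6A13, a GABA carrier, had 407 and 261 (-0.64), and SLC10A3, of the bile acid carrier family, had 411 and 271 (-0.60). SLC13A4, a sulphate carrier, was at -0.51, and SLC17A5, the sialic acid exporter of lysosomes, at -0.02. The fatty acid activating proteins SLC27A5 and SLC27A2 were at 0.56 and -0.17. SLC36A1, a lysosomal amino acid carrier, was at 0.15, and SLC43A1, a carrier of neutral amino acids, at 0.08. The 6 measured genes of recently numbered families all lay between, from SLC68A1 (-0.15) to SLC66A2 (0.55).

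How far a ratio depends on the probe set was seen in the 32 measured genes with several probe sets. In 16 of them (50%) all probe sets had the same sign, against 57.1% of all measured genes with several, and in 16 they had both. For probe sets at a mean signal of at least 200 alone, it was 12 of 19 genes, against 68.2% of all genes. Among the genes called, SLC30A5, SLC35E3, SLC11A2, SLC19A1 and SLC37A4 had a probe set of the opposite sign, each time at a mean signal under 200.

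**Figure D5:**
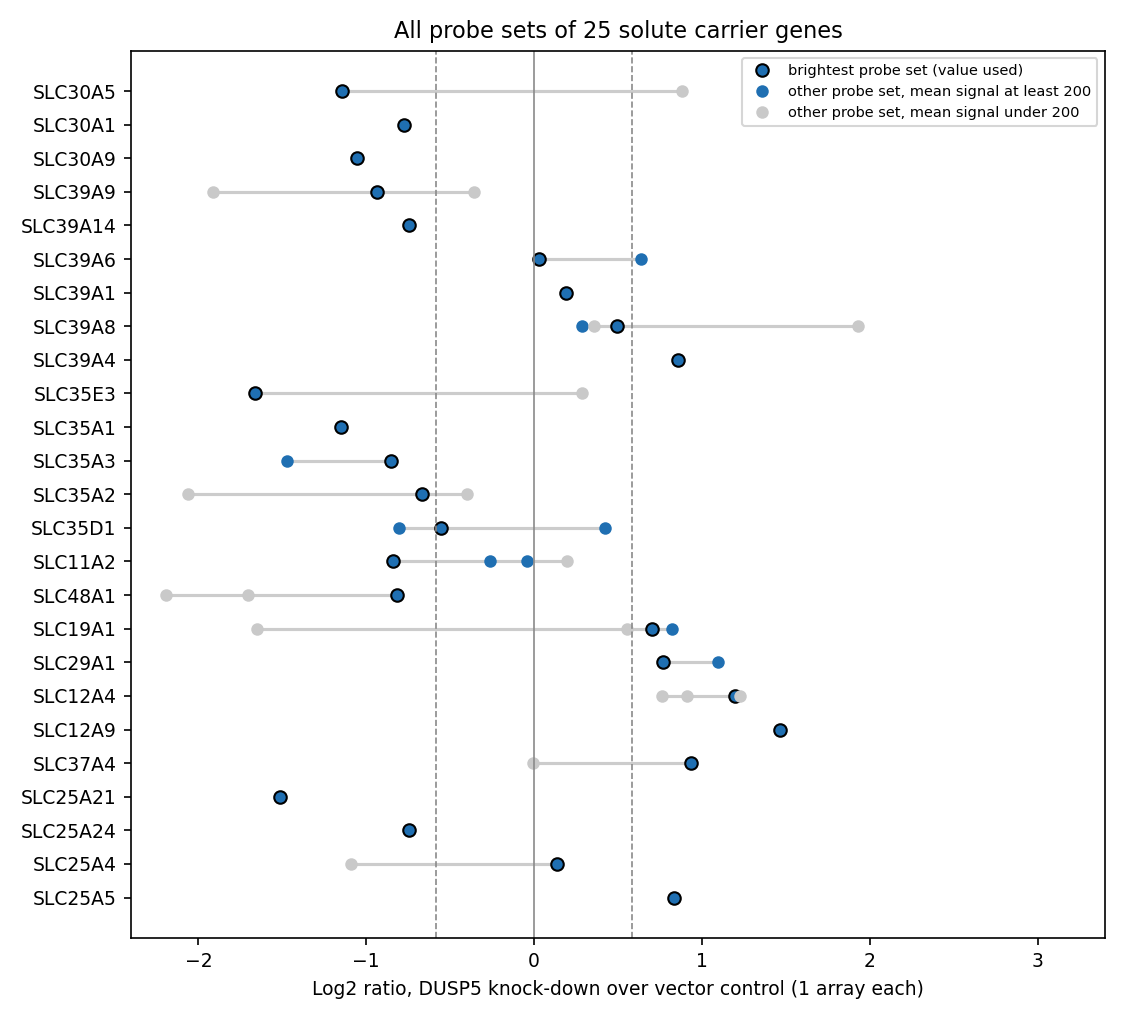
Log2 ratio (horizontal axis, DUSP5 knock-down over vector control, 1 array each) at every probe set of 25 solute carrier genes. Outlined points are the brightest probe set, whose value is used, blue points have a mean signal of at least 200 and grey points less, and dashed lines mark a 1.5-fold difference. The probe sets of SLC30A5 (-1.14 and 0.88) lie on either side of 0, and those of SLC12A4 (0.76 to 1.23) and SLC29A1 (0.77 and 1.10) lie on 1 side.

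For comparison, mitochondrial carriers and pores that bear no SLC symbol had a wider range between quartiles, 1.42, in few genes. Higher were 3 of 8 measured genes and lower 1, against 15.6% and 19.0% of all measured genes, and the median log2 ratio was 0.07. VDAC1, a pore of the outer membrane, was at 1.61 (0.82 at the lowest of its probe sets), UCP2, an uncoupling protein of the SLC25 fold, at 1.40 (1476 and 3884), and MTCH2, an outer membrane relative of the SLC25 proteins, at 1.21 (1297 and 3008). VDAC2 was at -0.08 and MPC2, a subunit of the pyruvate carrier, at -0.62. The proteins that bring SLC25 carriers to the inner membrane were also split, with 4 of 10 higher and 2 lower and a median of 0.21. TIMM13, a chaperone between the membranes, was at 1.28, whereas TIMM22, which inserts the carriers, was at -0.92 and TIMM9, another of the chaperones, at -0.69.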

How the data were processed

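Total RNA of L-428 cells, 1 culture with the control vector and 1 with the DUSP5 knock-down vector, was hybridised to Affymetrix HG_133A microarrays. The deposited values are linear MAS5 signal intensities, which the authors obtained from Expression Console (target intensity 500), with no detection calls, 1 column per array, and all columns were used. The number of arrays limits the precision.

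Gene symbols came from the platform annotation. The RefSeq table of GRCh38.p14 held all 195 members under the same symbol, and promoter sequences were from RefSeq as well. Log2 ratios were computed from the deposited signal intensities with no further normalization. The brightest probe set, by mean signal, stood for a gene, and a mean signal of 200 was required to count a gene as measured. Substrate groups were written from textbook roles. The members, groups and lists were chosen with earlier results of these data known. With 1 array per condition no test was run, and groups are described by counts and medians, the larger ones beside the shares of all measured genes.

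Named were all measured SLC25 genes and, of the other families, the 10 highest and 10 lowest ratios, the 5 highest mean signals and the highest and lowest of each group with at least 3 measured genes. Also named were the 3 members on either side of the threshold, DUSP5 and the ends of each comparison list. Further genes were added after their values were seen. The SD of a ratio came from all pairs of probe sets of a gene in the same band of signal. Alternatives of scaling, filter, probe set choice and fold are given in the closing section. The steps were tested on simulated data. Protein sequences were not analysed here. Computation was in Python 3.11.15, with pandas 2.3.3, numpy 2.4.6, statsmodels 0.14.6 for lowess and matplotlib 3.10.9 for plots.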

Additional observations from a re-analysis of the deposited data

How the results depend on the processing

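Alternatives were quantile normalization, ratios centred on the median of all probe sets (a shift of 0.12), subtraction of a lowess fit on mean log2 signal (span 0.3), a constant of 32 added before the ratio, the filter dropped or set at 500, the mean over a gene's probe sets, omission of the probe set types _s_at and _x_at, omission of genes that are no carriers, and a 2-fold size rule. The SLC25 median ran from -0.06 to 0.20, that of the other families from -0.18 to 0.09, and their difference from 0.04 to 0.21. SLC25 genes called higher numbered 1 as reported, 0 with the lowess fit subtracted, 5 with no filter, 2 with the mean of all probe sets and 0 at 2-fold, and those called lower numbered 2 as reported and 1 at 2-fold. Of the other families, 6 higher became 34 with no filter, 1 at a mean signal of at least 500, 2 without _s_at and _x_at and 2 at 2-fold. Their 15 lower genes became 35, 8 at a mean signal of at least 500 and 5 at 2-fold. Without _s_at and _x_at, 52 members reached a mean signal of 200. By construction the filters and size rules change these counts, and for the rest the cause was not tested. With ratios centred, 11.0% of all measured genes were higher and 24.1% lower, and among the other families 5 were higher and 17 lower. Quantile normalization moved the other families the opposite way, to 8 higher and 12 lower, beside 16.7% and 16.9% of all measured genes. After subtraction of the lowess fit they had 7 higher and 13 lower, beside 15.5% and 18.1%. Without a filter the zinc median was -0.01, and with the mean over probe sets -0.13, and otherwise it lay between -0.87 and -0.69. SLC11A2 turned to 0.20 without _s_at and _x_at, at a dim probe set. Of the values of single named genes 367 moved by less than the SD between probe sets and 21 by more, beside that of SLC11A2. Under at least 1 alternative 11 named genes had the other sign, of which SLC11A2 was the only gene with a 1.5-fold difference as reported. No paired analysis was possible because there is 1 array a condition, and for that reason no replicate could be left out. Low signal over background limits what can be read from the dim members.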

Other observations

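The 6 SLC25 genes under a mean signal of 200 all had ratios above 0, at signals where the SD between probe sets is 0.73 (mean signal 100 to 200) or 1.19 (under 100). A lean above 0 at low signal was not particular to SLC25. The median log2 ratio was 0.12 over all probe sets, against 0.01 over all measured genes. For the other families it was 0.09 without the filter, against -0.05 with it. SLC25A15, the ornithine carrier of the urea cycle, had a signal of 102 in control cells and 230 after knock-down (log2 ratio 1.17), and SLC25A10, the dicarboxylate carrier, had 145 and 210 (0.54). SLC25A23 had 84.9 and 140 (0.72). The other three, SLC25A30, SLC25A31 and SLC25A42, had mean signals under 60.

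Of the SLCO family, whose organic anion carriers bear no SLC number, 1 of 10 genes with a probe set reached a mean signal of 200. This was SLCO3A1, with 867 in control cells and 2099 after knock-down (log2 ratio 1.28), and its other probe set went the other way (-0.36).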
